A study of Mus musculus with 20 samples.

Results

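Geranylgeraniol (GGOH) given alone was compared with vehicle in the liver of obese mice, as RNA levels of all named genes with adequate counts. The comparison used the 5 libraries labelled DIO GGOH 1 to 5 and the 5 labelled DIO control (vehicle) 1 to 5, which are 10 of the 20 libraries of the study. Of 34933 named genes, 12789 passed the default count filter of edgeR and were tested. All groups carried the genotype label WT and the tissue label liver. DIO stands for diet-induced obesity, which the vehicle mice share with the treated mice, so that no lean liver enters the comparison. The other libraries were from mice given rosuvastatin, a statin, or rosuvastatin together with GGOH, 5 of each. GGOH alone is a group in the sample labels, although the design text of the study does not name it. The labels give no strain beyond WT, and no age, sex, dose, route, duration of treatment, hour of sampling or batch. The labels number the libraries 1 to 5 in each group without saying that each came from another animal. They are called mice here, and if some shared an animal the p-values would measure only the spread between libraries.

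Geranylgeraniol is the free alcohol of the geranylgeranyl group, the isoprenoid chain that is attached to many small GTPases so that they can bind membranes. Cells make the activated form, geranylgeranyl diphosphate, from mevalonate through farnesyl diphosphate, from which squalene and cholesterol are also made. Statins lower the synthesis of mevalonate, and geranylgeraniol can be phosphorylated by cells and used for prenylation when mevalonate is short. The liver is the main organ of cholesterol synthesis and of bile acid, lipoprotein and acute phase protein production.

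No gene passed the threshold, so what follows describes levels in each mouse and differences that are not established one by one. By edgeR's quasi-likelihood F test with Benjamini-Hochberg adjustment, 0 of 12789 genes (0%) had an adjusted p under 0.05, and the smallest adjusted p was 1.00. At an unadjusted p under 0.05 there were 366 genes (2.86%), against 639 expected by chance, of which 161 (1.26%) were higher and 205 (1.60%) lower with GGOH. DESeq2 called 0 genes as well, with 434 at an unadjusted p under 0.05 and a smallest adjusted p of 0.242. In 55 genes (0.430%) the 5 GGOH values lay wholly on one side of the 5 vehicle values, 25 (0.195%) above and 30 (0.235%) below. With mice assigned to groups at random, a fraction of 0.00794 of genes would be expected to separate in this way. That is a larger share than was found, so separation alone does not set a gene apart from chance. A fitted difference of at least 1 on the log2 scale, a 2-fold difference, was found in 96 genes (0.751%) higher and 74 genes (0.579%) lower. Over all genes tested the median log2 fold change was -0.02, and 6001 genes (46.9%) had a positive one. On log2(TPM + 1) and log2(TPM + 0.1), tested with limma, 89.5% and 90.2% of the genes at an unadjusted p under 0.05 were higher with GGOH, against 44.0% in the count test.

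The spread between mice and the precision of the fitted differences were estimated in the same fit. The common biological coefficient of variation was 0.300 and the median SE of a log2 fold change was 0.25. In 75.0% of the genes the 95% interval of the difference lay within 1 log2 unit of 0. In counts simulated for the same 12789 genes, the test recovered 51% of 100 genes changed 2-fold and 94% of 100 genes changed 4-fold, with 7 false calls. The simulation drew each gene independently around 1 mean and held no sets of mice that move together. These shares therefore do not measure what could be recovered in the real data.

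Total estimated counts ran from 12947700 to 16776600 with vehicle and from 11350400 to 18373900 with GGOH. The mitochondrial share of counts was 13.6 ± 1.61% (SD, n = 5) with vehicle and 12.9 ± 3.41% with GGOH (exact permutation p = 0.675, adjusted 0.675 over 4 library measures). Among the vehicle mice, mice 1 and 3 stood apart from mice 2, 4 and 5. Across genes, log2 CPM (counts scaled to library size with the TMM method of edgeR) correlated at 0.968 between vehicle mice 1 and 3, at 0.972 to 0.973 among mice 2, 4 and 5, and at 0.898 to 0.953 between the sets. No label separates them. Many values that change sign or move by over 1.5 times without mice 1 and 3 are given both ways below, but not all of them. Markers of hepatocytes were present at high levels in every library, with Alb, which encodes albumin, at 40219 to 67610 CPM. Their summed level was 70028 to 97499 CPM with vehicle and 64810 to 81606 CPM with GGOH, in which 9 of 10 hepatocyte markers entered the test and 3 were higher with GGOH (median log2 fold change -0.11). In whole liver, fewer cells of a type and less RNA per cell cannot be told apart.

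**Figure D1:**
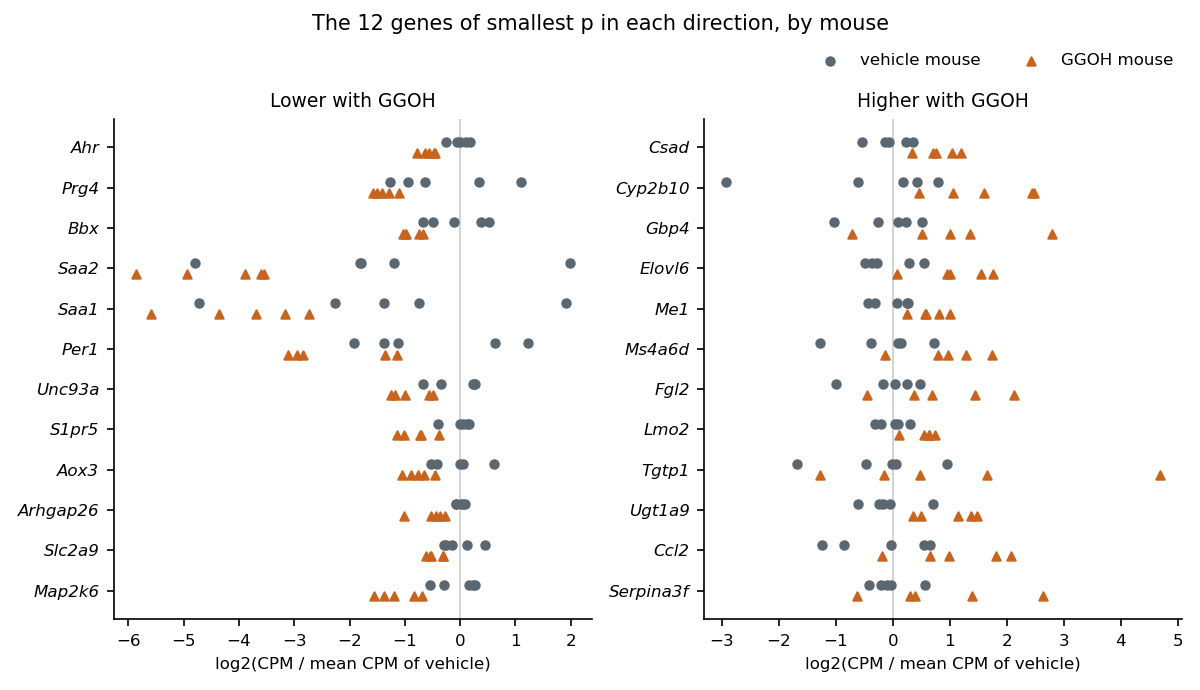
Levels of the 12 genes with the smallest p in each direction, as log2 of the ratio of each mouse's CPM to the vehicle mean (horizontal axis), with 1 point per mouse, circles for vehicle and triangles for GGOH. Only Ahr, Arhgap26, Slc2a9 and Map2k6 had groups that did not overlap, and Saa1, Saa2 and Tgtp1 covered the widest ranges.

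Ahr (chr12:35497974-35535038 on GRCm38, as are the positions below), the aryl hydrocarbon receptor, a ligand-activated transcription factor that controls enzymes of xenobiotic metabolism, had the smallest p of all genes. In vehicle mice 1 to 5 Ahr stood at 22.1, 25.1, 24, 21.4 and 18.5 CPM, and in GGOH mice 1 to 5 at 16.2, 15.0, 16, 14.3 and 13 CPM. All GGOH mice were below all vehicle mice, and neither group had a mouse far from the rest. The log2 fold change of Ahr was -0.58 ± 0.15 (SE), with a 95% interval from -0.88 to -0.27 (edgeR unadjusted p = 0.000784, adjusted p = 1.00). Of 8 tested genes on the list of the receptor and its targets, 1 had an unadjusted p under 0.05, namely Ahr, and the list median was -0.05. Without vehicle mice 1 and 3 the list median was -0.08. Cyp1a2, a hepatic cytochrome P450 induced through the receptor, was at 86.4 ± 30.2 CPM (SD, n = 5) with vehicle and 68.9 ± 19.3 CPM with GGOH. This was a log2 fold change of -0.33 ± 0.30. Cyp1b1 and Tiparp, targets of the receptor in many tissues, were at -0.04 and -0.06, and Nqo1 at 0.21.

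The next named genes lower with GGOH included secreted, signalling and transport proteins. Prg4, which encodes lubricin, a secreted proteoglycan, was at 64.2, 109, 32.7, 26.4 and 21.0 CPM in the vehicle mice and at 23.4, 20.8, 17.8, 19.0 and 16.9 CPM in the GGOH mice. The GGOH values were close together, and the vehicle values ran from their level up to several times it. Prg4 had a log2 fold change of -1.37 ± 0.35 (unadjusted p = 0.000805), which was -1.39 without vehicle mice 1 and 3 and -0.90 without vehicle mouse 2. Map2k6 (chr11:110399122-110525522), a kinase that activates p38 MAP kinases, was at 4.01, 3.36, 5.80, 5.45 and 5.92 CPM with vehicle and at 1.66, 1.89, 2.15, 2.76 and 3.03 CPM with GGOH. These groups did not overlap, and the log2 fold change was -1.08 ± 0.33. Slc2a9, a urate transporter, was at 29.4, 19.4, 23.7, 17.6 and 18.1 CPM against 14.1, 15.1, 14.8, 17.4 and 17.4 CPM. The highest GGOH values lay just under the lowest vehicle value, and the log2 fold change of -0.46 ± 0.14 became -0.20 without vehicle mice 1 and 3. Arhgap26, which switches off small GTPases by promoting GTP hydrolysis, was at 10.5 to 11.7 CPM (median 11.2) with vehicle and at 5.50 to 9.15 CPM (median 8.25) with GGOH, again without overlap, a log2 fold change of -0.51 ± 0.15.

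Other genes of this set overlapped between groups. Bbx, an HMG-box DNA-binding protein, was at -0.89 ± 0.23 and at -0.44 without vehicle mice 1 and 3, which held its highest vehicle values of 6.34 and 7.03 CPM. Unc93a, a membrane protein of the UNC-93 family, was at -0.83 ± 0.24, with 2.194 to 4.20 CPM in vehicle mice and 1.46 to 2.47 CPM in GGOH mice. Of the 31-base runs in transcripts of Unc93a, 65% occur in other genes and 62% in Unc93a2. Its reads cannot be assigned firmly to it. S1pr5, a receptor for sphingosine 1-phosphate, was at -0.76 ± 0.23, with 2.54 to 3.74 CPM against 1.52 to 2.56 CPM. Aox3, an aldehyde oxidase of mouse liver that clears drugs and aldehydes, was at 345, 232, 225, 156 and 168 CPM with vehicle and at 165, 109, 122, 134 and 144 CPM with GGOH. Its highest value was in vehicle mouse 1, and its log2 fold change of -0.74 ± 0.22 became -0.44 without vehicle mice 1 and 3.

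Serum amyloid A genes, Saa1 and Saa2, had the largest negative differences among the named genes. They encode acute phase proteins that the liver secretes into plasma during inflammation and that travel on high-density lipoprotein. The 2 genes are neighbours and lie head to head on chromosome 7, Saa1 at chr7:46740497-46742980 on the minus strand and Saa2 at chr7:46751790-46754313 on the plus strand (GENCODE M21, GRCm38). Their promoters are shown because the genes are near copies whose values followed each other from mouse to mouse. The 250 bases before each start, from RefSeq on GRCm38.p6, were at chr7:46742981-46743230 (minus strand) and chr7:46751583-46751832 (plus strand), and 238 of 251 alignment columns were identical (94.8%). Capitals mark the bases that differ or face a gap.
Saa1: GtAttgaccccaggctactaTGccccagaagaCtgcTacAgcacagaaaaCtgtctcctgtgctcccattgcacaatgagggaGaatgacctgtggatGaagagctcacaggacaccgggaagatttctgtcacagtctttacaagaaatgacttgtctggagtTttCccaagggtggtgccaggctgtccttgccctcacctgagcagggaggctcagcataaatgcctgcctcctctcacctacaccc
Saa2: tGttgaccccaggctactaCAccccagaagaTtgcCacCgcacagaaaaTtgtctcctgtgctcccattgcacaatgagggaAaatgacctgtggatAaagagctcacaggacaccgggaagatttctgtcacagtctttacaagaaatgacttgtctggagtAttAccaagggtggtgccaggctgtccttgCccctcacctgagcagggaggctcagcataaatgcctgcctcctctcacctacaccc
Of the 31-base runs in the transcripts of Saa1, 46.0% also occur in transcripts of Saa2, so the division of reads between the 2 genes by kallisto is uncertain.

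Saa1 was at 508, 9216, 93.1, 944 and 1456 CPM in vehicle mice 1 to 5 and at 367, 190, 271, 119 and 50.9 CPM in GGOH mice 1 to 5. Vehicle mouse 2 stood far above the others and vehicle mouse 3 lay among the GGOH mice, so the groups overlapped. The log2 fold change of Saa1 was -3.61 ± 0.99 (unadjusted p = 0.00144), and -1.91 without vehicle mouse 2. Saa2 was at 367, 5034, 45.7, 361 and 553 CPM with vehicle and at 108, 85.9, 105, 41.6 and 21.8 CPM with GGOH. The same vehicle mice were highest and lowest, and the log2 fold change of Saa2 was -4.13 ± 1.06 (unadjusted p = 0.000829), or -2.194 without vehicle mouse 2. Without vehicle mice 1 and 3 the differences were larger, at -4.26 for Saa1 and -4.76 for Saa2.

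Most other genes of the acute phase list were also lower. Of its 25 tested genes 5 were higher with GGOH, 0 at an unadjusted p under 0.05 in that direction and 5 in the other, and the list median was -0.32 against -0.02 over all genes. Besides the serum amyloid genes the 5 were Orm2, Itih4 and C3. Orm2 encodes an orosomucoid, a plasma carrier protein, and was at 46.6, 213, 21.9, 51.4 and 65.3 CPM with vehicle and at 28.1, 49.1, 44.6, 36.3 and 18.2 CPM with GGOH. Vehicle mouse 2 was again the highest and vehicle mouse 3 among the lowest, and the log2 fold change was -1.17 ± 0.55. C3, the central complement component, was at 3785, 2292, 2039, 1522 and 1201 CPM against 1673, 1400, 1474, 1297 and 1241 CPM. Its highest value was in vehicle mouse 1, and the log2 fold change of -0.61 ± 0.26 became -0.22 without vehicle mice 1 and 3. Itih4, an inter-alpha-trypsin inhibitor heavy chain, was at -0.72 ± 0.32, with vehicle mice 1 and 2 at 1962 and 1918 CPM and the other 8 mice between 562 and 977 CPM. Lcn2, a siderophore-binding lipocalin, was at -1.34 (unadjusted p = 0.115), whereas the fibrinogen chains Fga, Fgb and Fgg were at -0.11, -0.07 and 0.01. Socs3, an inhibitor of STAT3 signalling, was at 0.32. Vehicle mouse 2 held the highest value of 9 of the 25 genes and vehicle mouse 1 that of 8, and GGOH mouse 5 the lowest value of 10. Without vehicle mouse 2 the list median was -0.15, with 7 genes higher.

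Genes induced by interferons had the opposite tilt, and 1 mouse held most of the highest values. Interferons act through GAS and ISRE elements in promoters and switch on antiviral proteins, guanylate-binding proteins and immunity-related GTPases. Of 30 tested genes 29 were higher with GGOH, 5 of them at an unadjusted p under 0.05 and 0 lower at that level. The 5 were Igtp, Gbp3, Gbp7, Ifit2 and Rtp4. The list median was 0.39, against -0.02 over all genes. GGOH mouse 2 held the highest of the 10 values in 25 of the 30 genes, and without it 20 genes were higher, 0 at an unadjusted p under 0.05, and the median was 0.09. The summed level of the list was 479 to 625 CPM with vehicle. With GGOH it was 1561 CPM in mouse 2 and 420 to 799 CPM in the other mice, and the lowest value of the 10 was in GGOH mouse 5.

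Tgtp1, Igtp and Gbp3 are shown with their promoters because all 3 were highest in the same mouse and hold matches to interferon elements near their starts. Each line gives the 250 bases before the start from RefSeq on GRCm38.p6, at chr11:48992247-48992496 (minus strand) for Tgtp1, chr11:58199306-58199555 (plus strand) for Igtp and chr3:142559794-142560043 (plus strand) for Gbp3. Capitals mark matches, on either strand, to GAS (TTCNNNGAA) or ISRE (GAAA, any 2 bases, GAAA).
Tgtp1: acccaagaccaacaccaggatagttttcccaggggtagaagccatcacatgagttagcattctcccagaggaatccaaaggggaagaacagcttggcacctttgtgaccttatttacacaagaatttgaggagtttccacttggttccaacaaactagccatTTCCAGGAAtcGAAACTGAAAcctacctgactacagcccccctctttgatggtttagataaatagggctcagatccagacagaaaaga
Igtp: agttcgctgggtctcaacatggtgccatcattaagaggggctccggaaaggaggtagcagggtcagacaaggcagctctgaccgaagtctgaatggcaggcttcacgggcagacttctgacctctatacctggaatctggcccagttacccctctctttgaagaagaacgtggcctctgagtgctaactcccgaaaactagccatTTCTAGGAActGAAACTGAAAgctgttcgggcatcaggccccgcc
Gbp3: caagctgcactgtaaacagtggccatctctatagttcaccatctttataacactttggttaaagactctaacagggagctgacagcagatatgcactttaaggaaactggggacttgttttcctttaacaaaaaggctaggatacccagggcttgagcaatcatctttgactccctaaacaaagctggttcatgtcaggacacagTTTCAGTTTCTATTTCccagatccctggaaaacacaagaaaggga
In Tgtp1 the GAS match began 88 bases and the ISRE match 77 bases before the start, and in Igtp they began at 45 and 34 bases. Gbp3 held 2 overlapping ISRE matches, 45 and 39 bases before the start, and no GAS match. The table holds a second start for Gbp3, at whose promoter (chr3:142560106-142560355, plus strand) neither motif was found. Matches were not confined to genes highest in that mouse. Ggps1, whose GGOH values lay within the vehicle range, held both motifs. Per1 and Bcl6, which were lower with GGOH, held GAS matches. Fgl2 and Serpina3f held GAS matches too, and both were highest in GGOH mouse 2. Over 32851 promoters of this length, 7.02% held GAS and 2.98% held ISRE. Counted by gene, 8.13% of 27025 genes held GAS and 3.46% held ISRE in any promoter. Among the 23 interferon list genes with a promoter in the table, 7 (30.4%) held GAS and 13 (56.5%) held ISRE. Among 22 genes of the acute phase list, 7 (31.8%) held GAS and 2 (9.09%) held ISRE. A match describes letters only and does not show that a factor was bound.

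Tgtp1, an immunity-related GTPase induced by interferon-gamma, was at 20.8, 19.7, 14.4, 38.4 and 6.21 CPM with vehicle and at 62.7, 515, 18, 27.7 and 8.26 CPM with GGOH. GGOH mouse 2 was far above every other mouse, GGOH mouse 1 was next, and the remaining GGOH mice lay within the vehicle range. The log2 fold change of Tgtp1 was 2.67 ± 0.87 (unadjusted p = 0.00568), and 0.55 without GGOH mouse 2 (unadjusted p = 0.379). Tgtp1 and Tgtp2 are near copies that share 83.2% of the 31-base runs of Tgtp1. Igtp, a GTPase of the same family, was at 42.3, 23.7, 30.0, 31 and 19.3 CPM against 41.4, 249, 38.6, 36.9 and 19.6 CPM. Its log2 fold change was 1.39 ± 0.52, and 0.22 without GGOH mouse 2. Gbp4, a guanylate-binding protein, was at 3.77, 8.97, 6.45, 11 and 8.21 CPM against 15.3, 53.5, 10.9, 19.7 and 4.70 CPM. Tgtp1 and Gbp4 were not on the interferon list. For Gbp4, GGOH mice 1, 2 and 4 were above all vehicle mice, and the log2 fold change of 1.46 ± 0.43 was 0.73 without GGOH mouse 2 (unadjusted p = 0.0733). Gbp3 was at 0.87 ± 0.36 and at 0.23 without that mouse. Rtp4, an interferon-induced chaperone of membrane receptors, was at 0.48 ± 0.22 and at 0.22 without it. Oas2, a sensor of double-stranded RNA, was the only list gene with a negative difference, at -0.75 ± 0.48.

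**Figure D2:**
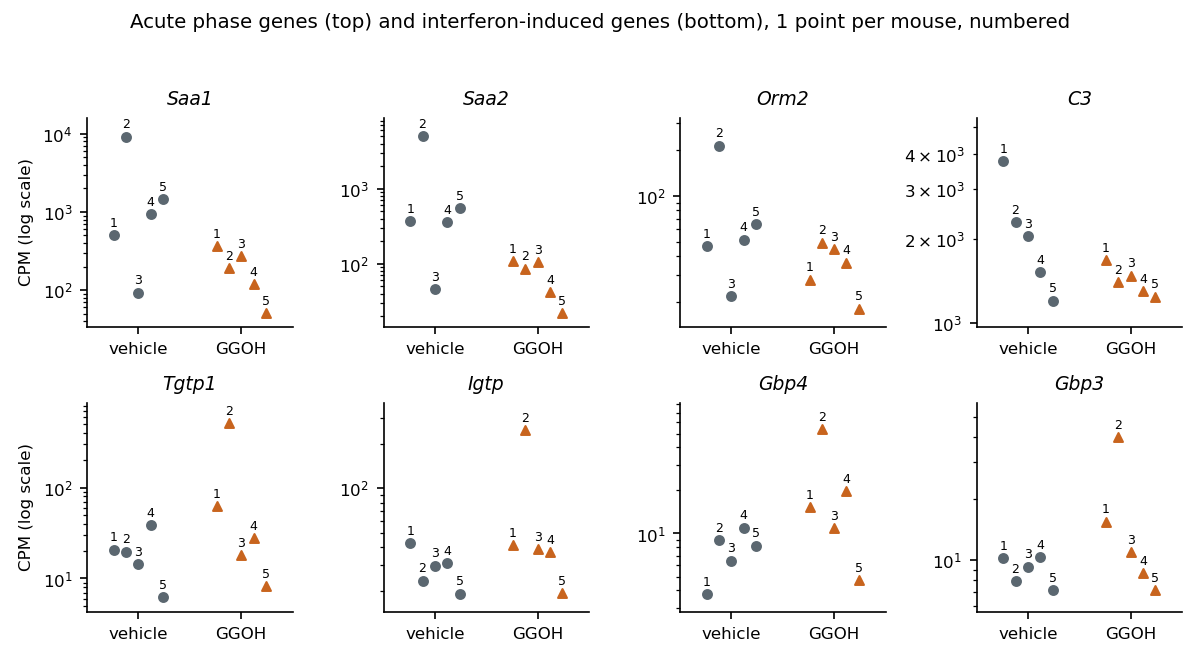
CPM on a log scale (vertical axis) of 4 acute phase genes (top) and 4 interferon-induced genes (bottom) in vehicle mice (circles) and GGOH mice (triangles), with the number of each mouse. Vehicle mouse 2 was highest for Saa1, Saa2 and Orm2, and GGOH mouse 2 was highest for Tgtp1, Igtp, Gbp4 and Gbp3.

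Several chemokine and immune genes were highest in GGOH mice 1 and 2. Ccl2, which draws monocytes into tissue, was at 0.954, 3.55, 1.24, 3.29 and 2.20 CPM with vehicle and at 7.91, 9.47, 3.54, 4.46 and 1.96 CPM with GGOH. GGOH mice 1, 2 and 4 were above all vehicle mice and mouse 5 was within their range, and the log2 fold change was 1.31 ± 0.44 (unadjusted p = 0.00669), or 0.87 without vehicle mice 1 and 3. Cxcl1, a neutrophil chemokine, was at 189 CPM in GGOH mouse 1 and between 6.06 and 42.9 CPM in the other 9 mice. Of 21 tested cytokine and chemokine genes, 15 were higher, 1 at an unadjusted p under 0.05, and the median was 0.39. It was 0.06 without GGOH mouse 2. Without vehicle mice 1 and 3 the median was 0.25, and 0 of these genes had an unadjusted p under 0.05. Fgl2, a fibrinogen-like protein secreted or displayed by immune cells, was at 4.29 to 12 CPM (median 8.88) against 6.30 to 37.4 CPM (median 13.9). The difference was 1.11 ± 0.36 on the log2 scale, and 0.67 without GGOH mouse 2. Ms4a6d, a membrane protein found in macrophages, was at 1.29 to 5.17 CPM (median 3.34) against 2.85 to 10.4 CPM (median 6.15), with a log2 fold change of 1.08 ± 0.33. Serpina3f, a serine protease inhibitor, was at 4.10, 3.83, 3.32, 6.49 and 4.30 CPM against 11.6, 27.5, 5.75, 5.41 and 2.85 CPM. GGOH mice 1 and 2 were above all vehicle mice for Fgl2, Ms4a6d and Serpina3f, and the log2 fold change of Serpina3f, 1.28 ± 0.43, was 0.54 without GGOH mouse 2. Lmo2, a cofactor of blood cell transcription, was at 0.55 ± 0.18, with 2.87 to 4.39 CPM against 3.86 to 5.96 CPM.

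Of 10 Kupffer cell markers 9 were higher with GGOH, 0 at an unadjusted p under 0.05, with a median of 0.30. Their summed level was 275 to 492 CPM with vehicle, and 610, 706, 468, 340 and 183 CPM in GGOH mice 1 to 5. GGOH mouse 2 held the highest value of 8 of the 10 markers and GGOH mouse 5 the lowest of 7, the same mice that were highest and lowest in the interferon sum. Without GGOH mouse 2 the median was 0.08. Clec4f, a lectin of Kupffer cells, was at 0.08 ± 0.37 and Marco, a scavenger receptor, at 1.38 ± 0.88. Of 10 markers of lipid-associated macrophages 9 were higher (median 0.31), of 6 monocyte markers 5 (median 0.27), of 4 tested neutrophil markers all 4 (median 0.66) and of 7 B and plasma cell markers all 7 (median 0.39). The monocyte median was -0.04, with 2 of 6 higher, and the neutrophil median 0.36 without vehicle mice 1 and 3. Over single mice left out the neutrophil median ran from 0.37 to 1.11. Of these lists, Ly6c2, a monocyte surface protein, had an unadjusted p under 0.05. Of 12 markers of T and NK cells 5 were higher (median -0.15), with a summed level of 7.4 to 23.4 CPM with vehicle and 6.6 to 18.9 CPM with GGOH, and the median was 0.32 without vehicle mouse 4. Of 10 sinusoidal endothelial markers 0 were higher, with a median of -0.16, and the sums were 246 to 297 CPM with vehicle and 236 to 277 CPM with GGOH. Without vehicle mice 1 and 3, 6 were higher and the median was 0.02. The other marker lists had medians of -0.21 (dendritic cells, 2 tested), -0.05 (stellate cells, 9), -0.09 (cholangiocytes, 6), -0.17 (adipocytes, 3), 0.11 (erythroid cells, 7) and -0.37 (pancreatic acinar cells, 1). The sign turned without vehicle mice 1 and 3 for cholangiocytes (0.18, 4 of 6 higher), erythroid cells (-0.20, 1 of 7 higher) and stellate cells (0.01, 5 of 9 higher). The neutrophil marker Ly6g had at most 1 count and the adipocyte marker Adipoq at most 1 count in any of the 10 libraries, and the adipocyte hormone Lep had 0 in all. The part of cell composition in the interferon and chemokine values was not tested.

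Csad (chr15:102176999-102204724), which makes hypotaurine, the precursor of taurine that is conjugated to bile acids, was at 49.5, 66.1, 35.9, 47.3 and 60.9 CPM with vehicle and at 107, 66.0, 84.6, 87.5 and 120 CPM with GGOH. GGOH mouse 2 lay just under the highest vehicle mouse and the other 4 were above all vehicle mice. Csad had a log2 fold change of 0.84 ± 0.23 (unadjusted p = 0.00167), the smallest p among the named genes that were higher. Cyp2b10 (chr7:25897620-25926624), a cytochrome P450 that the receptor CAR induces, was at 0.811, 0.467, 1.24, 0.094 and 0.955 CPM against 0.976, 2.15, 3.86, 3.95 and 1.49 CPM. Its level was low in all 10 mice, 4 of the GGOH mice were above every vehicle mouse, and the log2 fold change was 1.76 ± 0.51 (unadjusted p = 0.00227). Transcripts of Cyp2b10 share 19.4% of their 31-base runs with other genes, 13.1% with Cyp2b13, which was at -1.29 ± 1.12. Cyp3a11, a major P450 induced through the receptor PXR, was at 2246, 2693, 2422, 2211 and 1890 CPM against 2575, 3734, 4808, 6361 and 1980 CPM. GGOH mice 2, 3 and 4 were above all vehicle mice, and the log2 fold change was 0.76 ± 0.27. Cyp2c29, another P450 induced through CAR, was at 479, 287, 391, 319 and 478 CPM against 534, 469, 891, 666 and 435 CPM, with a log2 fold change of 0.62 ± 0.22. Ugt1a9, a UDP-glucuronosyltransferase, was at 1.04 ± 0.34, but 67.8% of its 31-base runs occur in other genes and its reads cannot be assigned firmly to it. Of 23 tested genes on the list of CAR, PXR and xenobiotic metabolism, 10 were higher, 3 of them at an unadjusted p under 0.05 and 0 lower at that level, and the median was -0.02, equal to that of all genes, and 0.05 without vehicle mice 1 and 3. The receptors themselves were at -0.30 for Nr1i3, which encodes CAR, and 0.09 for Nr1i2, which encodes PXR.

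In the list of de novo lipogenesis and triglyceride synthesis, 4 of 20 genes had an unadjusted p under 0.05. Elovl6 (chr3:129532355-129638495), which lengthens palmitate to stearate, was at 55.0, 26.9, 29.0, 45.7 and 30.8 CPM with vehicle and at 39.4, 110, 72.6, 127 and 75.1 CPM with GGOH. GGOH mouse 1 lay within the vehicle range and the other 4 above it, and the log2 fold change was 1.18 ± 0.35 (unadjusted p = 0.00291). Me1, the cytosolic malic enzyme that supplies NADPH for lipid synthesis, was at 116, 173, 107, 152 and 170 CPM against 170, 213, 216, 287 and 251.8 CPM. GGOH mouse 1 was again within the vehicle range, and the log2 fold change was 0.67 ± 0.20. Srebf1, which encodes the transcription factor SREBP1 that drives fatty acid synthesis, was at 65.3, 14.2, 36.3, 18.9 and 13.1 CPM against 11.9, 22.4, 10.1, 17.0 and 22.3 CPM. Its high values were those of vehicle mice 1 and 3, and the log2 fold change of -0.82 ± 0.38 (unadjusted p = 0.0407) was 0.15 without these mice. Of 20 genes of de novo lipogenesis and triglyceride synthesis 12 were higher, 3 at an unadjusted p under 0.05 (Me1, Elovl6 and Elovl5) and 1 lower (Srebf1), with a median of 0.09. Without vehicle mice 1 and 3 the median was 0.42, with 17 higher. It was -0.04 without GGOH mouse 5 (9 higher), -0.03 without vehicle mouse 5 (9 higher) and -0.00 without GGOH mouse 2. Fasn, the fatty acid synthase, was at 0.19 ± 0.39 and Scd1, the stearoyl-CoA desaturase, at 0.36 ± 0.39.

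On the oxidation side, Fgf21 (chr7:45613886-45615490), a hormone that the liver secretes in fasting under the control of PPAR-alpha, was at 14.2, 5.14, 2.74, 7.43 and 4.58 CPM with vehicle and at 19.5, 20.1, 15.0, 13.5 and 9.93 CPM with GGOH. Only vehicle mouse 1 reached the range of the GGOH mice. Fgf21 had a log2 fold change of 1.18 ± 0.42 (unadjusted p = 0.0106), and 1.46 without vehicle mice 1 and 3. Ehhadh, an enzyme of peroxisomal beta-oxidation, was at 299, 350, 291, 346 and 634 CPM against 766, 387, 548, 731 and 376 CPM. Vehicle mouse 5 was far above the other vehicle mice, the GGOH mice were all above those 4, and the log2 fold change was 0.55 ± 0.23. The log2 fold change of Ehhadh was 0.36 without vehicle mice 1 and 3. Plin2 (chr4:86648386-86670060), a coat protein of lipid droplets, was at 430, 402, 307, 380 and 439 CPM against 547, 502, 568, 498 and 473 CPM. Its groups did not overlap, and the log2 fold change was 0.40 ± 0.19. Of 34 genes of fatty acid oxidation and PPAR-alpha targets 25 were higher, 3 of them (Fgf21, Ehhadh and Plin2) at an unadjusted p under 0.05 and 0 lower at that level, with a median of 0.14. The median lay between 0.08 and 0.22 when each of the 10 mice was left out in turn, and it was 0.19 without vehicle mice 1 and 3. Cpt1a, which admits fatty acids to mitochondria, was at -0.10, and Ppara itself at -0.27. Of 25 nuclear respiratory chain genes 21 were higher, with a median of 0.08, 0 of them at an unadjusted p under 0.05, and without vehicle mice 1 and 3 11 were higher and the median was -0.02.

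**Figure D3:**
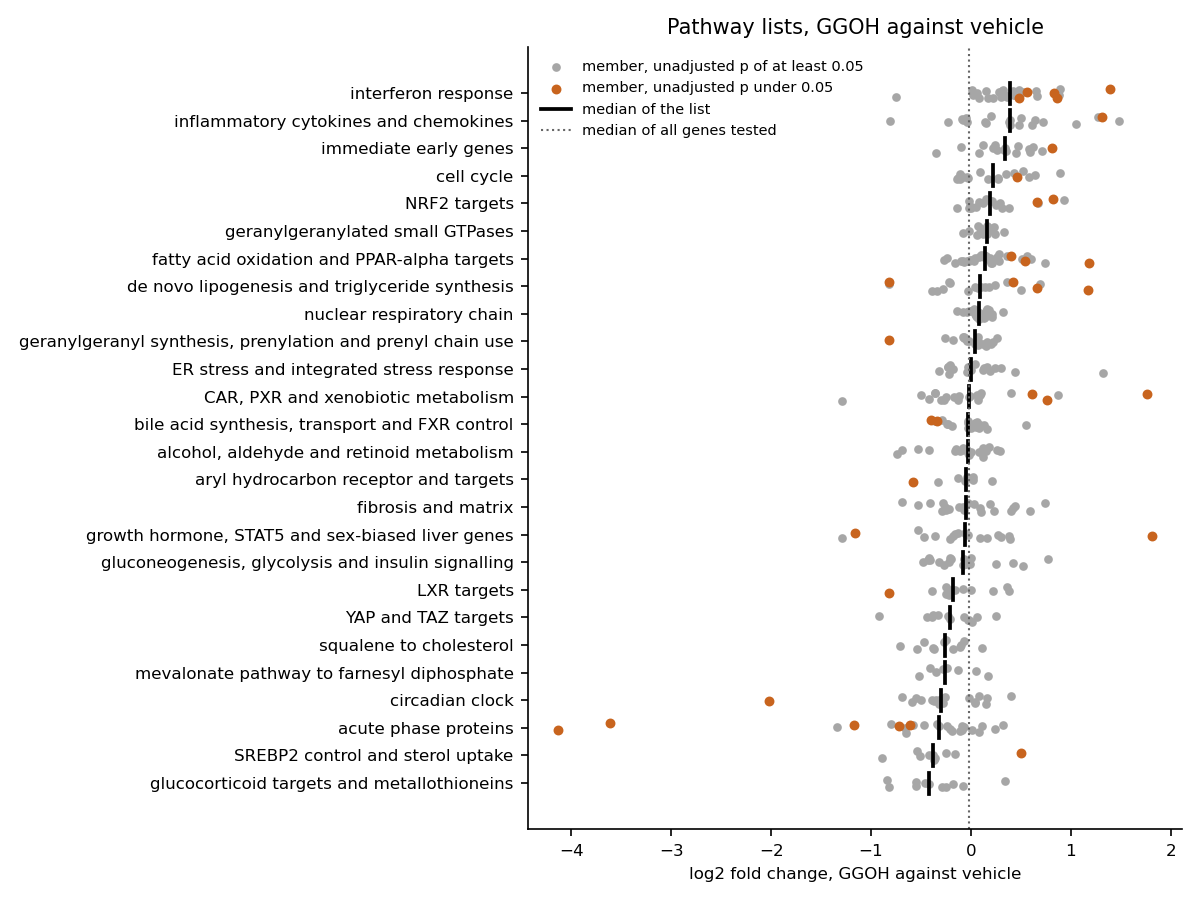
Log2 fold change, GGOH against vehicle (horizontal axis), of every tested member of 26 pathway lists, 1 point per gene, with the list median as a bar and the median of all genes as a dotted line. Interferon genes had the highest list median (0.39, as had cytokines) and glucocorticoid targets the lowest (-0.42), and Saa1 and Saa2 lay far to the left of all other members.

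The mevalonate pathway is where the isoprenoid itself belongs, and 0 of its genes had an unadjusted p under 0.05. Fdps, which makes farnesyl diphosphate, was at 72.7, 63.9, 15.5, 27.4 and 16.7 CPM with vehicle and, with GGOH, at 21.2, 43.8, 24, 33.9 and 56.7 CPM. Vehicle mice 1 and 2 were above every GGOH mouse and vehicle mice 3 and 5 below them all, and the log2 fold change was -0.13 ± 0.50, with a 95% interval from -1.17 to 0.91. Of 8 genes from acetoacetyl-CoA to farnesyl diphosphate 2 were higher, with a median of -0.26, which was 0.13 without vehicle mouse 2. Of 12 genes from squalene to cholesterol 1 was higher, with a median of -0.26 and 0 at an unadjusted p under 0.05. The median ran from -0.39 to -0.09 over single mice left out and was -0.18 without vehicle mice 1 and 3. Sqle, the squalene epoxidase, was at 31, 33.0, 4.23, 12.8 and 4.39 CPM against 4.30, 17.8, 10.6, 9.14 and 16.6 CPM, and Lss, the lanosterol synthase, was at -0.71 ± 0.45. In both lists the highest values were mostly those of vehicle mice 1 and 2, which held 7 of the 8 and 10 of the 12 maxima.

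Regulators of sterol synthesis and uptake mostly had negative differences. Srebf2, which encodes the transcription factor of sterol synthesis, was at -0.38 ± 0.25 and Insig1, which retains it in the endoplasmic reticulum, at -0.42 ± 0.32. Insig1 was at -0.05 without vehicle mouse 2 and Srebf2 at -0.12 without vehicle mouse 1. Insig2, the second retention protein, was the only higher gene of 10 tested on the list, at 0.51 ± 0.24 (unadjusted p just under 0.05), with vehicle mouse 1 lowest at 111 CPM and the GGOH mice between 245 and 390 CPM. Insig2 was at 0.27 without vehicle mice 1 and 3. The list median was -0.38, and -0.10 without vehicle mice 1 and 3. Among targets of the oxysterol receptor LXR, the cholesterol exporters Abca1 and Abcg1 were at -0.20 ± 0.18 and -0.08 ± 0.25. On the list of LXR genes and their targets 4 of 12 were higher, with a median of -0.18 that was 0.20 without vehicle mice 1 and 3.

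Among enzymes that make or use geranylgeranyl diphosphate, 1 of 19 had an unadjusted p under 0.05. Ggps1 (chr13:14050659-14063488), which makes geranylgeranyl diphosphate, was at 8.20, 22, 14.1, 18.9 and 20.05 CPM against 16, 18.5, 17.4, 16.4 and 17.0 CPM. The GGOH mice lay within the vehicle range, and the 95% interval of the log2 fold change ran from -0.38 to 0.46 around 0.04. Pggt1b, the catalytic subunit of the enzyme that geranylgeranylates proteins, was at 4.16 ± 0.922 CPM (SD, n = 5) against 4.69 ± 0.859 CPM. Fntb, the catalytic subunit of the farnesyltransferase, had the lowest fold change of the 19 genes on this list, at -0.82 ± 0.35 (unadjusted p = 0.0305), with 0.859 to 2.29 CPM in vehicle mice and 0.395 to 1.33 CPM in GGOH mice. Without vehicle mice 1 and 3 it was -0.35. The list median was 0.04, with 10 higher, and 0.10 with 11 higher without vehicle mice 1 and 3. Of 17 geranylgeranylated GTPases 15 were higher, 0 at an unadjusted p under 0.05, with a median of 0.16 (11 and 0.09 without vehicle mice 1 and 3). Rhob, a GTPase with a short-lived transcript, was at 18.6 ± 1.34 CPM against 20.7 ± 3.01 CPM, a log2 fold change of 0.16 ± 0.22, Rhoa was at 0.07 ± 0.16 and Rac1 at -0.08 ± 0.17. YAP and TAZ are coactivators whose activity needs geranylgeranylated GTPases. The list of YAP, TAZ, their partner Tead1 and their targets had a median of -0.20 with 3 of 13 higher, and 0.07 without vehicle mice 1 and 3. Ccn1 and Ccn2, secreted matricellular targets, were at -0.32 and -0.02.

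Bile acid genes included 2 that were lower at an unadjusted p under 0.05, of 19 tested, and the median was -0.02 with 9 higher. Without vehicle mice 1 and 3 the median was -0.16 with 7 higher, and 0 were lower at that level. Nr5a2, a nuclear receptor that activates bile acid synthesis genes, was at 42.9, 38.8, 44.5, 40.6 and 34.0 CPM against 34.2, 29.1, 35.7, 29.1 and 30.8 CPM. The lowest vehicle mouse lay among the GGOH mice, and the log2 fold change was -0.34 ± 0.12. Abcb11, the bile salt export pump, was at -0.40 ± 0.19, and at -0.19 without vehicle mice 1 and 3. Cyp7a1, the rate-limiting enzyme of bile acid synthesis, was at 150, 237, 138, 149 and 131 CPM against 135, 100, 204, 112 and 131 CPM, a log2 fold change of -0.24 ± 0.27, and -0.06 without vehicle mouse 2.

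Clock, stress and growth hormone genes differed between mice within the groups. Per1 (chr11:69095217-69109960), a repressor of the circadian clock that also responds to glucocorticoids, was at 14.2, 2.34, 9.31, 1.60 and 2.77 CPM with vehicle and at 0.781, 2.36, 0.695, 0.846 and 2.73 CPM with GGOH. The high values were those of vehicle mice 1 and 3. Its log2 fold change of -2.02 ± 0.57 (unadjusted p = 0.00184) was -0.54 without them (unadjusted p = 0.312). Of 19 clock genes 6 were higher, with a median of -0.30, and without vehicle mice 1 and 3 12 were higher and the median was 0.07. The list of glucocorticoid targets and metallothioneins, which also holds the receptor gene Nr3c1, had a median of -0.42 with 1 of 11 higher, and 0.09 without the same mice. The hour of sampling is not given in the labels, and its part in these values was not tested. Of 17 immediate early genes 15 were higher, with a median of 0.34 (17 of 17 and 0.68 without vehicle mice 1 and 3), among them Gadd45b, a stress-induced regulator of growth arrest, at 0.81 ± 0.36. Hmox1, the heme oxygenase, was at 17.8, 16.6, 11.2, 13.5 and 15.6 CPM against 31.3, 53.5, 22.1, 14.6 and 10.9 CPM, with GGOH mouse 2 highest and mouse 5 lowest. Its log2 fold change of 0.82 ± 0.31 was 0.40 without GGOH mouse 2. The list of NRF2, its regulator Keap1 and its targets, which holds Hmox1, had a median of 0.19 over 19 tested genes. Of these 15 were higher, Hmox1 and Me1 at an unadjusted p under 0.05, and 0 were lower at that level.

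Cish, a feedback inhibitor that STAT5 induces, was at 1.10, 1.12, 1.69, 1.41 and 0.955 CPM against 1.46, 1.84, 1.58, 3.38 and 13.8 CPM. GGOH mouse 5 was far above all other mice, and without it the log2 fold change of Cish was 0.73. Bcl6, a repressor of STAT5 targets, was at 36.4, 30.6, 28.3, 22.1 and 14.6 CPM against 16, 14.4, 12.4, 12.2 and 4.28 CPM, and the lowest value was in the same mouse. The log2 fold change was 1.82 ± 0.65 for Cish and -1.16 ± 0.42 for Bcl6. Of 19 growth hormone and STAT5 genes 7 were higher, with a median of -0.06, which was 0.01 without vehicle mice 1 and 3 and -0.25 without GGOH mouse 5. Pcna, the sliding clamp of DNA replication, was at 0.46 ± 0.21, and of 18 cell cycle genes 11 were higher, with a median of 0.22. The remaining lists had medians between -0.08 and -0.00 and 0 members at an unadjusted p under 0.05. These were gluconeogenesis and insulin signalling (-0.08, 4 of 19 higher, and 0.01 without vehicle mice 1 and 3), fibrosis and matrix (-0.05, 10 of 22 higher, and 0.40 without vehicle mice 1 and 3), retinoid metabolism (-0.03, 9 of 23 higher, and 0.01 without them) and endoplasmic reticulum stress (-0.00, 9 of 19 higher, and 0.08 without them).

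**Figure D4:**
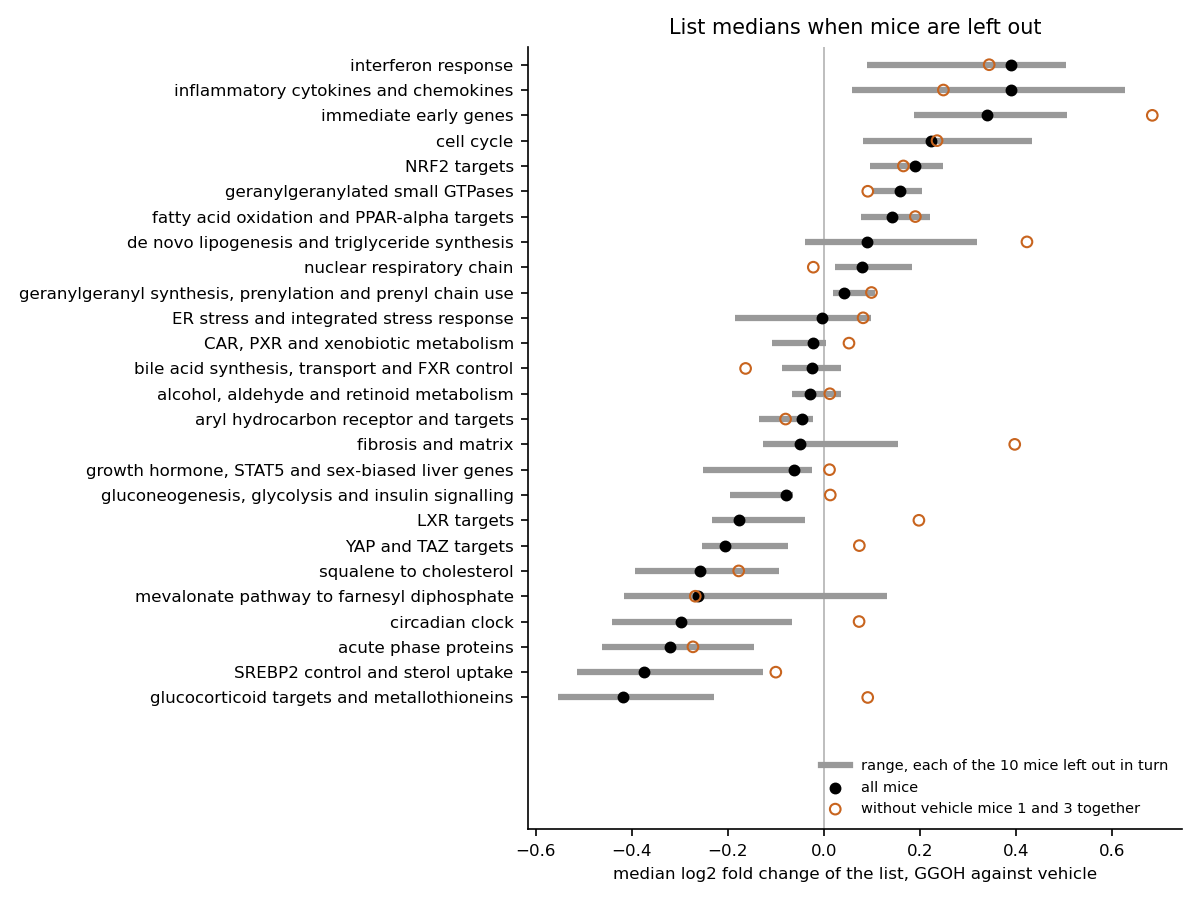
Median log2 fold change of each pathway list (horizontal axis) with all mice (filled circle), over the 10 fits that each left out 1 mouse (grey range) and without vehicle mice 1 and 3 together (open circle). The interferon median went down to 0.09 without GGOH mouse 2, and the clock, glucocorticoid, LXR and YAP medians were above 0 without vehicle mice 1 and 3.

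The next 4 genes were chosen after their values were seen. Apoa4, an apolipoprotein of triglyceride-rich particles, was at 1753, 1786, 1312, 1402 and 1323 CPM with vehicle and at 2020, 3074, 2190, 3332 and 3700 CPM with GGOH. All GGOH mice were above all vehicle mice, and the log2 fold change of Apoa4 was 0.92 ± 0.35 (unadjusted p = 0.0166). Mug1, a murinoglobulin, a plasma inhibitor of proteases, was at 1688, 1715, 1903, 1803 and 1732 CPM against 1548, 845, 1261, 1217 and 1025 CPM. The vehicle values were close together and all above the GGOH values, and the log2 fold change of Mug1 was -0.58 ± 0.22. Mug2, its paralog, was at -0.60 ± 0.20. Cyp2c70, the mouse P450 that makes muricholic acids, was at 97.2, 101, 157, 135 and 122 CPM against 75.2, 83.3, 82.7, 90.6 and 59.4 CPM, a log2 fold change of -0.65 ± 0.24.

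The same compound was also given with rosuvastatin, to mice of neither group compared above. The count filter and the spread estimate of the fit were shared over all 20 libraries. The combination was set against rosuvastatin alone. In that comparison edgeR called 0 of 12789 genes (0%), and 216 (1.69%) had an unadjusted p under 0.05, 131 (1.02%) higher and 85 (0.665%) lower. In 34 genes (0.266%) the groups did not overlap. The smallest adjusted p there, 0.0714, was that of Cyp2b10, and DESeq2 called that 1 gene. Combination mice 2 and 3 had mitochondrial shares of 27.9% and 29.2%, above all other libraries. Of the 24 genes with the smallest p for GGOH alone, 15 differed in the same direction under the statin, 3 of them at an unadjusted p under 0.05, and 0 differed in the other direction at that level. The 3 genes were Cyp2b10, Ahr and Saa2. The 24 genes had to reach an average log2 CPM of 1 over all 20 libraries. Cyp2b10 averaged 1.41, with group means of 0.713 CPM (vehicle), 2.48 CPM (GGOH), 0.752 CPM (rosuvastatin) and 6.04 CPM (combination). Its place among the 24 is therefore not independent of the combination mice. Of the 366 genes at an unadjusted p under 0.05 for GGOH alone, 145 (39.6%) differed in the same direction under the statin. At that level under the statin, 5 of the 366 differed in the same direction and 5 in the other. Of the 55 genes without overlap for GGOH alone, 17 (30.9%) had the same direction. Over all genes 41.4% had the same direction in both comparisons.

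Cyp2b10 was at 0.702, 0.476, 0.227, 0.639 and 1.72 CPM with rosuvastatin and at 4.03, 9.02, 5.15, 8.07 and 3.92 CPM with the combination. These groups did not overlap, and the log2 fold change of Cyp2b10 was 2.98 ± 0.50, beside 1.76 ± 0.51 for GGOH alone. Ahr was at 14.7, 23.1, 18.2, 25.6 and 22.5 CPM against 13.6, 18.2, 15.2, 14 and 13.5 CPM, a log2 fold change of -0.48 ± 0.15 (unadjusted p = 0.00352). The groups overlapped through rosuvastatin mouse 1. Saa2 was at 69.0, 78.8, 1047, 36.7 and 58.7 CPM against 66.5, 46.7, 30.0, 72.2 and 60.2 CPM, where 1 rosuvastatin mouse was far above the other 9. Its log2 fold change was -2.22 ± 0.98. Cyp2c29, also higher in both comparisons, was at 373, 413, 280, 435 and 266 CPM against 776, 478, 651, 746 and 581 CPM, without overlap, at 0.87 ± 0.22 (unadjusted p = 0.000759).

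Several other named genes had fitted differences nearer 0 or of the opposite sign under the statin. Tgtp1 was at -0.45 ± 0.82 there, Elovl6 at 0.23 ± 0.34, Csad at 0.14 ± 0.23, Prg4 at 0.33 ± 0.35, Ms4a6d at -0.44 ± 0.33, Fgf21 at -0.15 ± 0.41 and Apoa4 at -0.58 ± 0.35. The interferon list had a median of -0.02 with 14 of 30 higher, the Kupffer cell list -0.15 with 0 of 10 higher and the fatty acid oxidation list 0.09 with 24 of 34 higher. The acute phase list had a median of -0.38 with 4 of 25 higher. Rosuvastatin mouse 3 was at 1431 CPM of Saa1, with the other rosuvastatin mice between 65.6 and 191 CPM. List medians under the statin were not refitted with mice left out. For sterol synthesis, 0 of 8 genes to farnesyl diphosphate and 0 of 12 genes from squalene to cholesterol were higher (medians -0.86 and -0.74), with 1 and 2 of them at an unadjusted p under 0.05. For the difference between the GGOH effects with and without the statin, edgeR called 0 of 12789 genes (0%), with 369 (2.89%) at an unadjusted p under 0.05 and a smallest adjusted p of 0.999, so no gene was shown to respond differently.

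**Figure D5:**
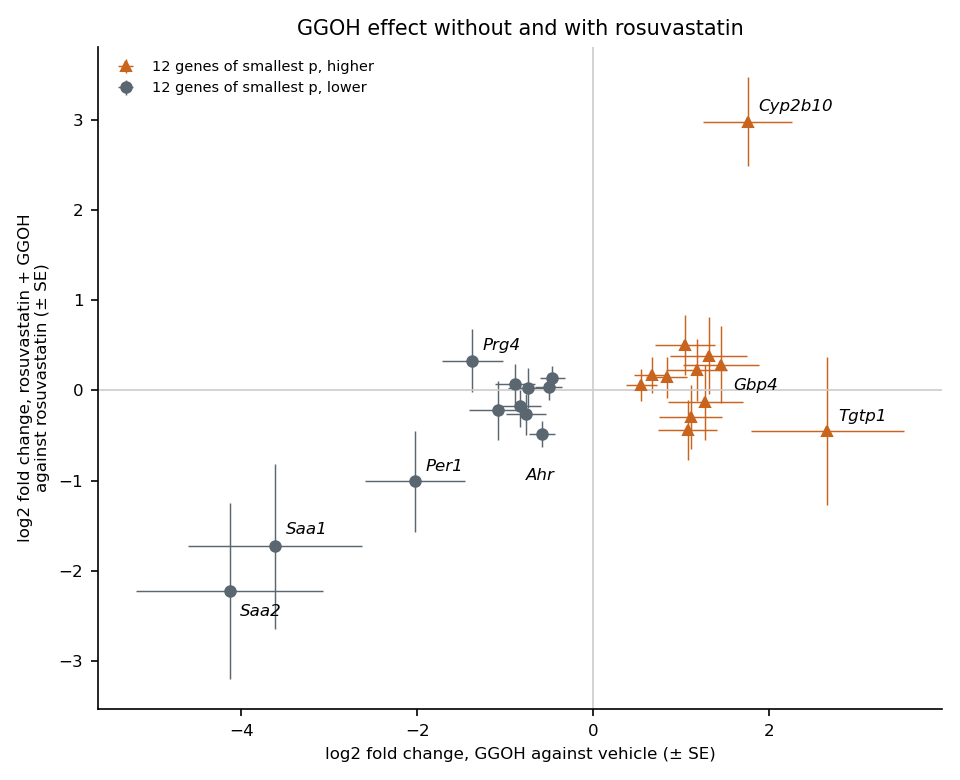
Log2 fold change of GGOH against vehicle (horizontal axis) and of rosuvastatin with GGOH against rosuvastatin (vertical axis) for the 24 genes with the smallest p for GGOH alone, with bars for 1 SE, triangles for genes higher and circles for genes lower with GGOH alone. Cyp2b10 was high on both axes, Saa1, Saa2, Per1 and Ahr were below 0 on both, and most other genes lay near 0 on the vertical axis.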

How the data were processed

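Poly(A) RNA of mouse liver was sequenced as paired 100-base reads, per the labels' protocols. The tools named, per the submitters' processing notes, are kallisto 0.44.0, DESeq2 (with no version or role) and bcl2fastq 2.19, with the build GRCm38 (mm10). The authors deposited estimated counts per gene, which are whole numbers in the table as deposited, and TPM values, scaled by the authors for length and depth. The single entry with no gene name (0.00801 to 0.0111% of counts in these 10 libraries) was left out.

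Counts were tested in R 4.3.3 with edgeR 4.0.16 (TMM, filterByExpr by group, a group-means model over all 20 libraries, quasi-likelihood F test, Benjamini-Hochberg adjustment at 0.05). CPM values are TMM-scaled and not per length, so levels are not compared between genes. SE is the log2 fold change divided by the root of F. Single library measures were compared by exact permutation of 252 assignments, two-sided, whose smallest p is 0.00794. Tests were tried first on simulated counts.

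Named genes are the 12 smallest p in each direction among genes with an assigned symbol and an average log2 CPM of at least 1, a set of sterol, isoprenoid and hormone genes, and up to 3 members of each list at an unadjusted p under 0.05. Other members are given from their lists, and some named genes and members are not reported here. Members, lists (26 of pathways, 14 of cell markers) and this rule were chosen with earlier results of these data known. Replicate numbers were checked for pairing and share no stated source. Positions are from GENCODE M21, promoters from RefSeq. Named genes whose 31-base runs also occur in other genes include Me1 (30%), Fdps (27.9%), Serpina3f (27.3%) and Pcna (23.3%). Alternatives were RLE, DESeq2 1.42.0, other filters, only the groups compared, a replicate block, limma 3.58.1 on log2 TPM, quality weights and each mouse left out. The fit without vehicle mice 1 and 3 was added after seeing the data.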

Additional observations from a re-analysis of the deposited data

Results flagged for a closer look

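In 118 groups of 5 values examined, 5 had a mouse far from the other 4 by Dixon's criterion (gene levels on the log2 CPM scale), against 5.9 by chance (1 in 20 groups). Vehicle mouse 2 had 237 CPM of Cyp7a1, with the other vehicle mice between 131 and 150 CPM, and without it the log2 fold change of Cyp7a1 was -0.06 in place of -0.24. Vehicle mouse 5 had 634 CPM of Ehhadh, with the others between 291 and 350 CPM, and without it the log2 fold change of Ehhadh was 0.79 in place of 0.55. GGOH mouse 5 had 4.28 CPM of Bcl6, with the others between 12.2 and 16 CPM. The total count of vehicle mouse 1 was 16776600, above 12947700 to 13776300 in the other vehicle mice. That of GGOH mouse 1 was 11350400, below 16379400 to 18373900 in the other GGOH mice. High CPM values described above for Saa1 and Saa2 (vehicle mouse 2) and Tgtp1 (GGOH mouse 2) did not meet Dixon's criterion on the log2 scale. Neither did that of Cish in GGOH mouse 5.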

How the results depend on the processing

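By edgeR, limma and DESeq2, 0 genes were called for GGOH against vehicle under all 20 alternatives. The 366 genes at an unadjusted p under 0.05 became 696 with no low-count filter, 220 and 224 on log2(TPM + 1) and log2(TPM + 0.1), 674 with sample quality weights, 779 without vehicle mice 1 and 3 together, and 217 to 735 over the fits without each single mouse (lowest without vehicle mouse 3, highest without vehicle mouse 5). The share of them that were higher was 44.0% in the main count test, 28.2 to 67.2% without each single mouse and 69.8% without vehicle mice 1 and 3. On log2(TPM + 0.1) the median log2 fold change of all genes was 0.09 in place of -0.02. The 55 genes without overlap became 101 on TPM. For GGOH added to rosuvastatin, 0 calls became 1 with DESeq2 and 1 with no low-count filter, Cyp2b10 in each case.

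Of 55 named genes 51 had the same sign under all of the 20 alternatives in which they were fitted. Bbx, among the 51, was fitted in 18. Of 40 lists 19 had the same sign of the median. Fdps (-0.13) was at 0.046 with the replicate block, 0.14 and 0.16 on the TPM scales, 0.15 with quality weights, 0.017 without vehicle mice 1 and 3, and -0.35 to 0.24 over single mice left out. Ggps1 (0.04) was at -0.12 with quality weights, -0.23 without vehicle mice 1 and 3 and -0.12 to 0.17 over single mice left out. Without vehicle mice 1 and 3, Srebf1 was at 0.15 and Abcg1 at 0.18, and Abcg1 (-0.08) ran from -0.27 to 0.12 over single mice left out. The cause was not tested. With the replicate number as a block, 286 genes had an unadjusted p under 0.05 and 0 were called. The correlations of same-numbered mice, -0.465, -0.198, 0.0418, 0.103 and -0.372, do not show that numbers pair the mice. Depth limits low genes such as Cyp2b10, and intervals cover the spread between 5 mice per group.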
